A study of Mus musculus with 18 samples.

Results

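A set of 44 genes of nucleolar ribosome biogenesis was followed in colon RNA-seq of WT and *Cldn2*KO mice. The genes were given by name, chosen with earlier results of these data known, and include *Nifk*. This gene encodes a nucleolar protein that binds the proliferation antigen Ki-67. Shares of the members beside those of all genes are therefore a description and no independent test. The members are 44 of the 47729 genes in the count table, and all 44 passed the filter on low counts. *Cldn2*KO mice lack claudin-2, a tight junction protein that forms a paracellular channel for cations and water. Each genotype had controls, a group labelled DSS-Recovery, and a group labelled AOM-DSS (AOM/DSS). DSS is dextran sulfate sodium, which is given in drinking water and damages the lining of the colon. AOM is azoxymethane, a carcinogen that gives rise to colon tumors when followed by DSS. One treatment note, of 1 dose of AOM at 10 mg per kg and 3 cycles of 2.5% DSS, stands with every sample, controls included, and the labels give no schedule for recovery alone. The mice were of C57BL/6 background, WT littermates served as controls, and the sources used here do not restrict the knockout to a cell type. Each of the 6 groups had 3 libraries, 18 in all, numbered 1 to 3 within a group. The labels do not give the age or sex of a mouse or say whether a library held pooled animals, so p-values measure the spread between libraries.

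A ribosome begins in the nucleolus, where RNA polymerase I copies the ribosomal DNA into a long precursor RNA. Small nucleolar ribonucleoproteins (snoRNPs) modify that precursor, the small subunit processome folds and cleaves its first part, and separate sets of assembly factors build each subunit before export to the cytoplasm. The colonic crypt renews itself throughout life, and dividing crypt cells have prominent nucleoli.

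Total counts were 17.64 to 27.39 M reads per library. *Cldn2* stood at 44.5 to 504 counts per M reads with TMM scaling (CPM) in WT libraries and at most 0.557 CPM in *Cldn2*KO libraries. *Hoxb13* is a posterior gene normally expressed in the distal colon, the segment named in the study for the recovery RNA. *Hoxb13* was at most 0.502 CPM in all 6 recovery libraries and in WT control 2, and at least 198 CPM in the other 11 libraries. The summed level of 14 epithelial markers was 68400 CPM in WT control 2, against 25200 and 24700 CPM in WT controls 1 and 3. *Xist*, which is expressed from the inactive X chromosome of females, was at 865 to 1740 CPM in libraries 2 and 3 of 3 groups, which were both recovery groups and the *Cldn2*KO AOM/DSS group. It did not exceed 1.16 CPM in any other library.

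The members covered a wide range of levels. Per kilobase of exon, the median over 18 libraries ran from 170 CPM for *Npm1* (nucleophosmin, an abundant nucleolar chaperone) to 1.12 CPM for *Rrp1b* (a large subunit assembly factor). *Nifk* ranked 5 of 44 at 27.7 CPM per kilobase. The 3 members of RNA polymerase I transcription were far apart on that scale, with *Polr1c*, which polymerase III also uses, at 24.0 and the catalytic subunit gene *Polr1a* at 1.41 CPM per kilobase. Read counts of single members in single libraries ran from 73 for *Rrp1b* to 15630 for *Npm1*. Since the handling of reads with several alignments was not stated, levels of *Fbl*, *Ddx18*, *Npm1*, *Nop56* and *Pes1* are uncertain. Of the distinct 50-base stretches of their transcripts, 67.7%, 61.4%, 31.9%, 30.3% and 21.5% respectively also occur in transcripts of other genes, mostly predicted genes. Strandedness of counting was not stated either, and exons of *Tsr1* overlap those of *Srr* on the other strand over 1240 bases, those of *Noc2l* overlap *Samd11* over 598, those of *Utp14a* overlap the noncoding gene *9530027J09Rik* over 473 and those of *Bysl* overlap *Ccnd3* over 361.

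Summed over the 44 members, the level was lowest in WT control 2 and highest in WT AOM/DSS 3. WT controls stood at 1950, 1400 and 2110 CPM, and *Cldn2*KO controls at 2220, 1950 and 2300 CPM. For recovery the sums were 2710, 2720 and 2630 CPM in WT, against 2050, 2060 and 2390 CPM in *Cldn2*KO. For AOM/DSS they were 3110, 2610 and 3460 CPM in WT, against 3110, 2510 and 2540 CPM in *Cldn2*KO. Both treated WT groups lay wholly above the WT controls. The *Cldn2*KO recovery libraries overlapped the *Cldn2*KO controls, and the *Cldn2*KO AOM/DSS libraries lay above them. In the map of all members by library, WT control 2 was the lowest of the 3 WT controls for 37 of 44 members and the lowest of all 18 libraries for 28. WT AOM/DSS 3 was the highest of its group for 37 members and the highest of all libraries for 22.

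**Figure D1:**
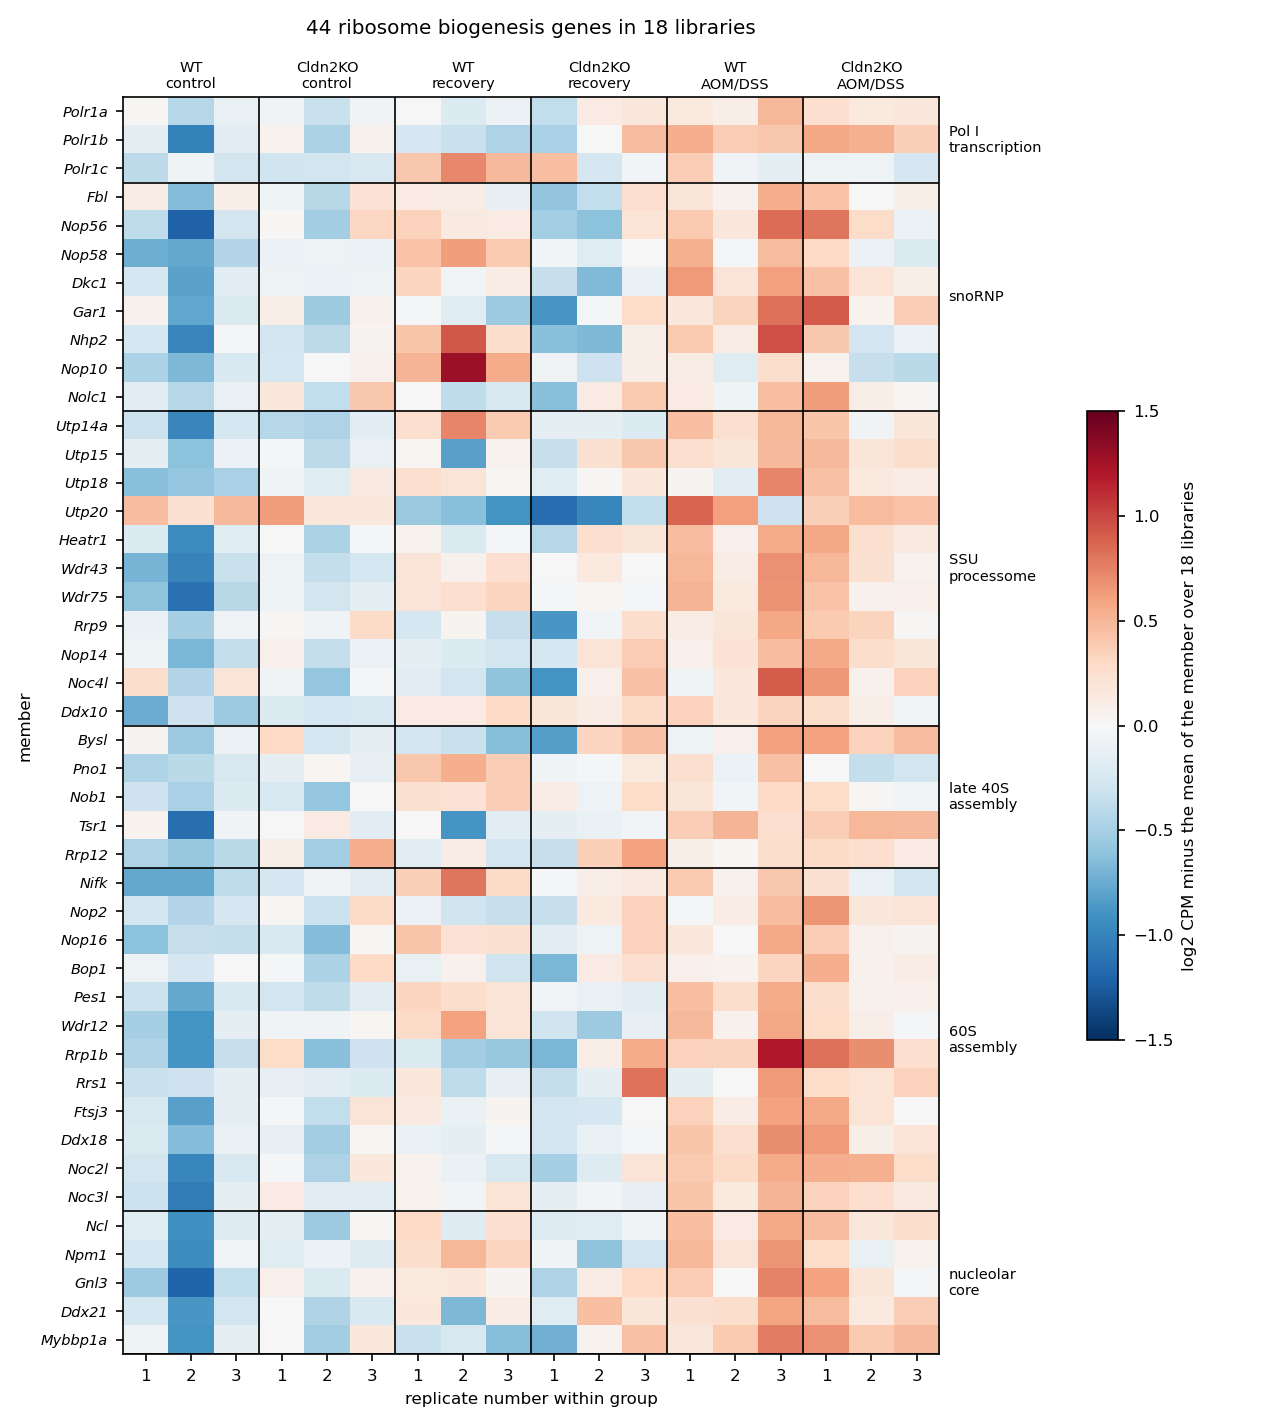
Level of each member (rows, grouped by role) in each library (columns, replicate number within 6 groups) as log2 CPM minus the mean of that member over 18 libraries, with red above and blue below the mean. WT control 2 is the lowest of all columns for 28 members, WT AOM/DSS 3 is the highest for 22, and *Utp20* is below its mean in all 6 recovery libraries.

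*Nifk* (ENSMUSG00000026377, GRCm38 chromosome 1, 118321839 to 118333822, plus strand, protein coding) is an assembly factor of the large subunit. Its level was 31.3, 31.4 and 40.9 CPM in WT controls, against 68.2, 93.0 and 65.4 CPM in WT recovery. WT AOM/DSS had 70.2, 55.8 and 70.8 CPM. Every treated WT library was above every WT control. In *Cldn2*KO the controls had 44.7, 51.4 and 47.6 CPM. Recovery from DSS gave 53.0, 57.4 and 58.5 CPM there, while AOM/DSS gave 62.6, 49.9 and 44.3 CPM. The *Cldn2*KO controls were all above the WT controls, and the *Cldn2*KO recovery libraries were all below the WT recovery libraries. *Nifk* rose 2.19-fold in WT recovery (log2 fold change 1.13 ± 0.171, SE, n = 3 against 3; edgeR adjusted p 0.000921) and 1.9-fold in WT AOM/DSS (0.93 ± 0.17, edgeR adjusted p 0.00947). In *Cldn2*KO mice its log2 fold change was 0.23 ± 0.169 in recovery (edgeR adjusted p 0.37) and 0.13 ± 0.168 in AOM/DSS (edgeR adjusted p 0.757). The difference between the genotypes in that response was -0.90 ± 0.239 for recovery (edgeR adjusted p 0.0906) and -0.80 ± 0.239 for AOM/DSS (edgeR adjusted p 0.436), so neither passed the threshold of 0.05. With DESeq2 the difference for recovery passed 0.05 (adjusted p 0.0189). In the other 21 of 22 alternative fits, limma-voom among them, it was not called at 0.05, with adjusted p of 0.0564 to 0.202. At the looser threshold of 0.1, the edgeR fit as reported would call it.

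**Figure D2:**
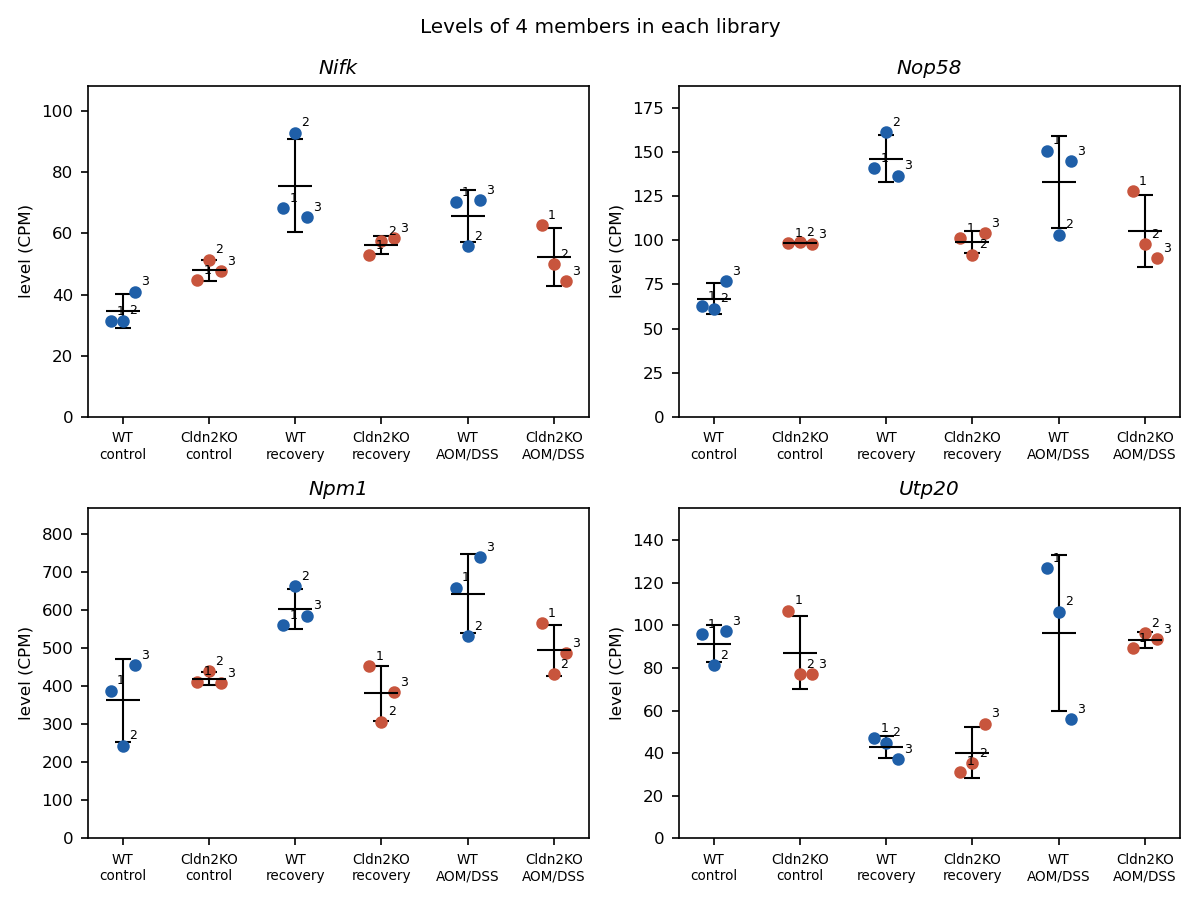
Levels in CPM of 4 members in each library, with points numbered by replicate within a group, blue for WT and red for *Cldn2*KO, and black bars for the group mean ± SD (n = 3). *Nifk*, *Nop58* and *Npm1* are higher in both treated WT groups than in WT controls, while *Utp20* is at 31.3 to 53.9 CPM in all 6 recovery libraries and at 77.2 CPM or more in all 6 controls.

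Other members stand for the roles in the pathway, and their group levels are given once. *Polr1a* averaged 14.8 ± 2.25 CPM in WT controls, 15.6 ± 1.15 in WT recovery and 19.8 ± 3.1 in WT AOM/DSS (SD, n = 3 here and in what follows), and 15.1 ± 1.62, 16.5 ± 3.22 and 19 ± 0.745 CPM in the same groups of *Cldn2*KO. *Fbl*, the rRNA methyltransferase of box C/D snoRNPs, averaged 36.9 ± 10.2, 40.8 ± 3.82 and 48.2 ± 8.72 CPM in WT and 37.9 ± 8.19, 34.6 ± 11 and 45.1 ± 7.25 CPM in *Cldn2*KO. Neither *Polr1a* nor *Fbl* passed the test in any comparison. *Dkc1*, the pseudouridine synthase of H/ACA snoRNPs, averaged 29.9 ± 6.65, 42.9 ± 5.54 and 55.0 ± 8.94 CPM in WT and 36.9 ± 0.253, 30.5 ± 5.86 and 46.5 ± 5.91 CPM in *Cldn2*KO. *Nob1*, the endonuclease that makes the final cut of the small subunit rRNA, averaged 20.6 ± 2.01, 31.3 ± 1.97 and 28.8 ± 3.32 CPM in WT and 21.8 ± 4.35, 27.9 ± 3.35 and 27.5 ± 3.29 CPM in *Cldn2*KO. *Dkc1* rose in WT AOM/DSS and *Nob1* in WT recovery. *Bop1*, a partner of *Pes1* and *Wdr12* in large subunit assembly, averaged 32.3 ± 2.88, 32.2 ± 4.14 and 38.8 ± 4.17 CPM in WT and 34.0 ± 8.85, 33.6 ± 10.4 and 41.5 ± 7.93 CPM in *Cldn2*KO, and passed no test. *Npm1* averaged 362 ± 108, 603 ± 53.1 and 643 ± 104 CPM in WT and 420.0 ± 16.5, 381 ± 72.8 and 495 ± 67.2 CPM in *Cldn2*KO, with WT control 2 the lowest of all libraries at 243.5 CPM. *Utp20*, which stands for the processome, is described with the recovery comparisons.

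In WT mice after recovery from DSS colitis, 17 of 44 members rose and 1 fell against WT controls, and 38 had a positive log2 fold change. A member was called when edgeR's quasi-likelihood test gave a p under 0.05 after Benjamini-Hochberg adjustment over all genes tested. Of all 16937 genes tested, 10.0% were called higher and 12.2% lower in that comparison. The median log2 fold change was 0.38 over the members and -0.04 over all genes. For 22 members the recovery libraries all lay above the controls, against 16.8% of all genes. Rises came from every role: 1 of 3 members of polymerase I transcription, 3 of 8 of the snoRNPs, 5 of 11 of the small subunit processome, 2 of 5 of late small subunit assembly, 4 of 12 of large subunit assembly and 2 of 5 of the nucleolar core proteins. With any 1 of the 6 libraries left out, *Ddx10*, *Nifk*, *Nop10*, *Nop58*, *Pes1*, *Pno1*, *Polr1c*, *Utp14a*, *Wdr12*, *Wdr43*, *Wdr75* and *Utp20* stayed called, while *Gnl3*, *Nhp2*, *Nob1*, *Nop16*, *Npm1* and *Utp18* were lost in at least 1 such fit. Without WT control 1 the number that rose was 11, with 4.26% of all genes called higher, and it was 13 without WT control 2 (11.8% of all genes), 18 without WT control 3 (6.28%), 14 without WT recovery 1 (8.92%), 14 without WT recovery 2 (6.09%) and 15 without WT recovery 3 (7.24%). Leaving out WT control 2 gave 29 positive values and a median of 0.24.

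Among the snoRNP proteins in WT recovery, *Nop10* of the H/ACA class had the largest log2 fold change of any member. It stood at 32.9, 28.5 and 38.8 CPM in WT controls and at 64.7, 110.7 and 67.1 CPM in WT recovery, a 2.42-fold rise (log2 fold change 1.27 ± 0.213, edgeR adjusted p 0.00147). *Nop58*, a scaffold of box C/D snoRNPs, went from 62.7, 61.3 and 77.0 CPM to 140.9, 161.5 and 136.7 CPM, a 2.19-fold rise (1.13 ± 0.163, edgeR adjusted p 0.000734), with no overlap between the groups. *Nhp2*, another H/ACA protein, rose 1.91-fold (0.93 ± 0.296, edgeR adjusted p 0.0347), while *Gar1* of the same particle was at 1.02-fold (0.03 ± 0.319, edgeR adjusted p 0.96). *Nop10* and *Nhp2* have the least exon sequence of the members, and the log2 fold change in WT recovery went down with exon length, with a Spearman rho of -0.157 across all genes tested and -0.172 across the 44 members. The median was 0.70 for the 22 shorter members and 0.35 for the 22 longer ones, and the part of length in these values was not tested.

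Within the small subunit processome, *Utp14a* rose 1.94-fold in WT recovery (0.96 ± 0.191, edgeR adjusted p 0.00362), *Wdr75* 1.91-fold (0.93 ± 0.174, edgeR adjusted p 0.00249) and *Wdr43* 1.77-fold (0.82 ± 0.177, edgeR adjusted p 0.00532). *Utp18* rose 1.65-fold and the helicase gene *Ddx10* 1.64-fold. In the other roles, *Wdr12* rose 1.8-fold, *Pno1* (which holds the cleavage site of the small subunit rRNA with *Nob1*) 1.75-fold, *Polr1c* 1.72-fold, the nucleostemin gene *Gnl3* 1.71-fold, *Npm1* 1.66-fold, *Nop16* 1.65-fold, *Pes1* 1.61-fold and *Nob1* 1.51-fold, each with an edgeR adjusted p between 0.00199 and 0.0336.

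*Utp20*, a scaffold protein of the small subunit processome (ENSMUSG00000004356, GRCm38 chromosome 10, 88746607 to 88826804, minus strand), was the one member that fell. Its level was 95.8, 81.4 and 97.3 CPM in WT controls and 47.0, 45.0 and 37.3 CPM in WT recovery. In *Cldn2*KO mice it was 107.0, 77.2 and 77.2 CPM in controls and 31.3, 35.4 and 53.9 CPM in recovery. In both genotypes every recovery library was below every control, which held for 20.9% of all genes in WT. *Utp20* stood at 0.471 of its control level in WT (log2 fold change -1.09 ± 0.254, edgeR adjusted p 0.00801) and at 0.461 in *Cldn2*KO (-1.12 ± 0.254, edgeR adjusted p 0.00693). The difference between the genotypes was -0.03 ± 0.355. With a term in the fit for libraries with *Hoxb13* above 10 CPM, *Utp20* was no longer called, while its log2 fold change was -0.92 in WT (edgeR adjusted p 0.0985) and -0.87 in *Cldn2*KO (0.435). WT control 2, the only control without *Hoxb13*, had *Utp20* at 81.4 CPM, the lowest of the WT controls and above all recovery libraries. This is a single library, and the part of *Hoxb13* status in the fall of *Utp20* was not tested. After AOM/DSS its levels were 126.8, 106.5 and 56.0 CPM in WT and 89.2, 96.5 and 93.6 CPM in *Cldn2*KO, where WT AOM/DSS 1 was above all controls, WT AOM/DSS 3 below them, and the other libraries within their range.

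In *Cldn2*KO recovery, 1 member rose and *Utp20* fell, where 9.43% of all genes were called higher and 10.0% lower. The riser was *Ddx10*, which went from 33.0, 31.7 and 32.1 CPM to 43.0, 40.9 and 46.4 CPM (log2 fold change 0.43 ± 0.128, edgeR adjusted p 0.029). This call was lost with upper-quartile scaling, without the filter, with *Xist* as a covariate, with the *Hoxb13* term and when any library of these groups but *Cldn2*KO recovery 2 was left out, with edgeR adjusted p of 0.0544 to 0.899 in those fits. The members' median log2 fold change was 0.08 with 28 of 44 positive, beside 0.00 over all genes, and it was -0.02 with 20 positive under upper-quartile scaling. With 1 library left out it ran from -0.07 (without *Cldn2*KO recovery 3) to 0.19 (without *Cldn2*KO control 3), and it was -0.02 without *Cldn2*KO control 2 and 0.17 without *Cldn2*KO recovery 1. For 4 members the *Cldn2*KO recovery libraries lay above the controls and for 3 below, against 19.9% and 20.5% of all genes. Beside *Utp20*, the lower ones were *Dkc1* and *Wdr12*, at log2 fold changes of -0.27 ± 0.187 and -0.28 ± 0.194, and neither passed the test.

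Because all recovery libraries lacked *Hoxb13* and the *Cldn2*KO controls all had it, recovery and *Hoxb13* status cannot be told apart within *Cldn2*KO. With the *Hoxb13* term, which rests on WT control 2 for its estimate, the members' median in *Cldn2*KO recovery was 0.63 with 43 positive. There edgeR called 0 members and 0.785% of all genes. An unadjusted p under 0.05 was found for 10 members, against 2213 of all 16937 genes. In WT recovery the same term gave 16 members higher and none lower, with a median of 0.75 and with 3.83% of all genes called higher. Against the fit without the term, *Polr1c*, *Utp18*, *Ddx10*, *Nob1* and *Nop16* were lost and *Nop56*, *Dkc1*, *Noc3l* and *Ncl* were gained, so no member of polymerase I transcription was called.

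AOM/DSS treatment of WT mice gave 24 of 44 members higher and none lower, and all 44 had a positive log2 fold change. In this comparison 3.81% of all genes were called higher and 6.58% lower. The median log2 fold change was 0.78 over the members and 0.01 over all genes. For 38 members the AOM/DSS libraries all lay above the WT controls, against 14.9% of all genes. By role, 9 of 12 large subunit assembly factors, 6 of 11 processome members, 4 of 5 nucleolar core proteins, 3 of 8 snoRNP proteins, 1 of 5 late small subunit factors and 1 of 3 members of polymerase I transcription rose.

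*Rrp1b* had the largest log2 fold change, from 6.5, 4.8 and 7.0 CPM in WT controls to 11.3, 11.2 and 20.3 CPM in WT AOM/DSS (2.34-fold, 1.23 ± 0.332, edgeR adjusted p 0.0342). *Wdr75* had the smallest adjusted p, going from 28.2, 19.6 and 32.1 CPM to 61.0, 47.1 and 68.0 CPM (2.2-fold, 1.14 ± 0.174, edgeR adjusted p 0.00425). In both, WT AOM/DSS 3 was the highest library and WT control 2 the lowest of these groups, and the groups did not overlap. *Wdr43* rose 2.15-fold (1.10 ± 0.178), *Gnl3* 2.1-fold (1.07 ± 0.246), *Nop56* 2.08-fold (1.06 ± 0.3) and *Nop58* 1.99-fold (0.99 ± 0.162), with edgeR adjusted p of 0.00486, 0.0205, 0.0386 and 0.00522. *Utp14a* rose 1.85-fold, *Dkc1* 1.84-fold, and *Noc2l*, a partner of *Noc3l* in large subunit precursors, 1.84-fold, with edgeR adjusted p of 0.0162, 0.0161 and 0.025. The nucleolin gene *Ncl* rose 1.72-fold from 333.1, 199.9 and 328.8 CPM to 514.2, 410.5 and 557.1 CPM (edgeR adjusted p 0.0338).

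The number called in WT AOM/DSS depended on single libraries. It was 6 of 44 without WT control 2, 6 without WT AOM/DSS 3, 14 without WT control 1 and 6 with the *Hoxb13* term, where 0.375%, 0.248%, 1.39% and 0.425% of all genes were called higher. The same 6 members were called in the fits without WT control 2, without WT AOM/DSS 3 and with the *Hoxb13* term: *Nop58*, *Wdr43*, *Wdr75*, *Ddx10*, *Nifk* and *Pes1*. These were also called in each other fit without 1 library. Without both WT control 2 and WT AOM/DSS 3, an alternative chosen after the data were seen, 3 remained, *Wdr75*, *Ddx10* and *Pes1*, with 0.139% of all genes called higher, and 43 of 44 log2 fold changes were positive with a median of 0.49. In a fit of these 2 groups alone, edgeR called 0 members and 7 of all genes, with a members' median of 0.80. DESeq2 called 28 members and limma-voom 22, with 7.04% and 6.18% of all genes called higher, and the median with limma-voom was 0.47.

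**Figure D3:**
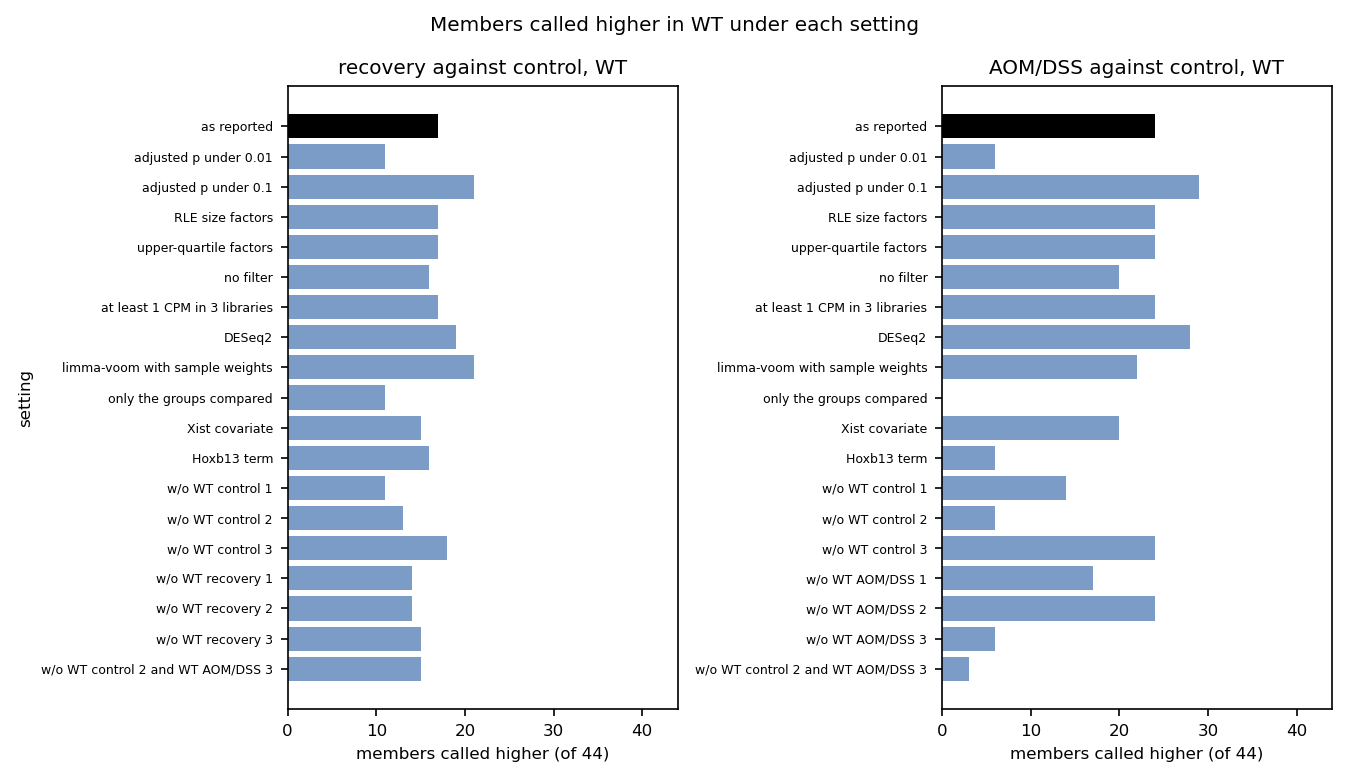
Number of the 44 members called higher (horizontal axis) in WT recovery (left) and WT AOM/DSS (right) against WT controls, as reported (black) and under each other setting (blue). The count stays between 11 and 21 in recovery and runs from 0 to 29 in AOM/DSS.

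In *Cldn2*KO mice given AOM/DSS no member passed edgeR's test, where 0.195% of all genes did. Of the 44, 13 had an unadjusted p under 0.05, against 15.2% of all genes. This number was 1 without *Cldn2*KO AOM/DSS 1 (1998 of all 17386 genes), 4 without *Cldn2*KO control 2 (1633 of 17391) and 6 with the *Xist* covariate (1780 of 16937). It was 20 in a fit of these 2 groups alone, against 24.4% of all genes, and 23 with limma-voom, against 34.4%. The fit of these 2 groups alone called 0 members and 5.87% of all genes. For the members, 42 log2 fold changes were positive, and the median log2 fold change was 0.35 beside 0.01 over all genes. For 22 members the AOM/DSS libraries all lay above the *Cldn2*KO controls, against 15% of all genes. The smallest adjusted p belonged to *Pes1* (log2 fold change 0.41 ± 0.136, edgeR adjusted p 0.184), *Wdr43* (0.50 ± 0.176, 0.205) and *Utp14a* (0.53 ± 0.19, 0.208). *Nop10* and *Pno1* were the 2 members with a negative value, at -0.16 ± 0.21 and -0.13 ± 0.142. DESeq2 called 0 members, and limma-voom with sample weights called 9 higher, among them *Pes1*, *Utp14a* and *Ncl*, with 9.25% of all genes called higher.

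WT recovery and WT AOM/DSS were both read against the same 3 WT controls, so their lists of calls share that part of the data. The members called higher in both were *Ddx10*, *Gnl3*, *Nifk*, *Nop16*, *Nop58*, *Npm1*, *Pes1*, *Pno1*, *Utp14a*, *Utp18*, *Wdr12*, *Wdr43* and *Wdr75*. They were 13 of the 17 called in recovery and 13 of the 24 called in AOM/DSS. The overlap was not counted over all genes tested, so these counts are not read as a trait of the members. Called in recovery and not in AOM/DSS were 4, *Nhp2*, *Nob1*, *Nop10* and *Polr1c*, and called in AOM/DSS and not in recovery were 11, among them *Ncl*, *Dkc1*, *Polr1b* and *Heatr1*. *Polr1b*, a large subunit of polymerase I, was at 1.03-fold in recovery and 1.77-fold in AOM/DSS (edgeR adjusted p 0.934 and 0.0454). The other 16 members were called higher in neither. Besides *Utp20*, these were *Bop1*, *Bysl*, *Fbl*, *Gar1*, *Mybbp1a*, *Noc4l*, *Nolc1*, *Nop14*, *Nop2*, *Polr1a*, *Rrp12*, *Rrp9*, *Rrs1*, *Tsr1* and *Utp15*, with log2 fold changes of -0.39 (*Noc4l*) to 0.37 (*Rrp12*) in recovery and 0.26 (*Bop1*) to 0.78 (*Mybbp1a*) in AOM/DSS.

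**Figure D4:**
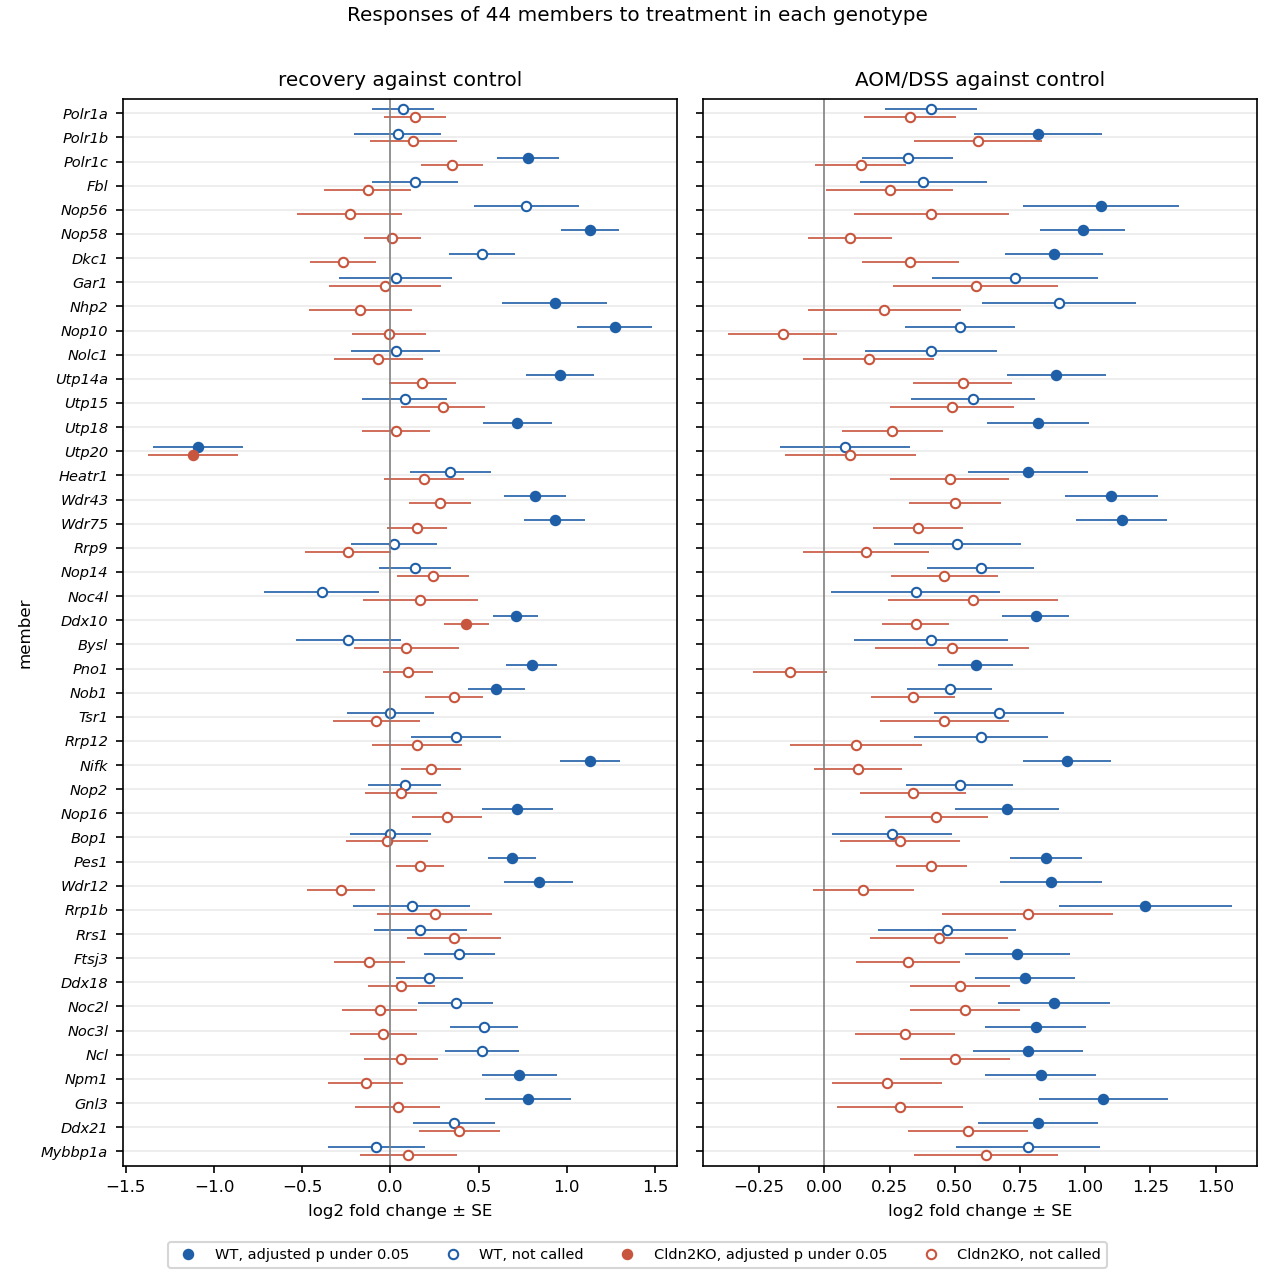
Log2 fold change ± SE of each member (rows) in recovery (left) and AOM/DSS (right) against controls of the same genotype, blue for WT and red for *Cldn2*KO, with filled points for an edgeR adjusted p under 0.05. WT has 18 filled points in recovery and 24 in AOM/DSS, and *Cldn2*KO has 2 and 0.

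Differences between the genotypes in these responses were tested directly, and no member passed in either. For recovery, 34 of 44 values were negative, meaning that the change from control was lower in *Cldn2*KO than in WT, with a median of -0.28 beside 0.05 over all genes and 0.13% of genes called. The median was -0.20 with 28 negative without WT control 2, -0.42 with 39 without *Cldn2*KO control 2 and -0.46 with 40 without *Cldn2*KO recovery 3. Of the members, 15 had an unadjusted p under 0.05, against 18.5% of all genes, and the smallest edgeR adjusted p were those of *Nop58* (-1.12 ± 0.228, 0.0585), *Nop10* (-1.29 ± 0.298, 0.0725) and *Wdr12* (-1.13 ± 0.276, 0.0804). All 8 snoRNP members were negative, with a median of -0.90. In the same comparison only 3 of 47 large and 2 of 32 small subunit ribosomal protein genes were positive, with medians of -0.86 and -1.0, 0 of 10 smooth muscle markers were positive (-1.08), and 10 of 10 T and NK cell markers were (2.0). These values are a description, and their part in the members' values was not tested. DESeq2 called 6 members, *Nop58*, *Nop10*, *Wdr75*, *Pno1*, *Nifk* and *Wdr12*, and limma-voom 7, *Nop58*, *Dkc1*, *Nop10*, *Wdr75*, *Pno1*, *Wdr12* and *Npm1*, all negative, where 2.38% and 4.67% of all genes were called in that direction. For AOM/DSS, 40 of 44 were negative with a median of -0.32, 10 had an unadjusted p under 0.05, against 8.44% of all genes, and the smallest edgeR adjusted p was 0.338, for *Nop58* (-0.89 ± 0.228), followed by *Pno1* (-0.71 ± 0.202, 0.404) and *Nifk*. Only 0.0118% of all genes were called there, and neither DESeq2 nor limma-voom called a member. The median was -0.16 without WT control 2, with 31 negative and 5 at an unadjusted p under 0.05, -0.19 with the *Hoxb13* term, -0.13 with limma-voom, and -0.06 with 25 negative without both WT control 2 and WT AOM/DSS 3. Of other lists in the AOM/DSS comparison, 19 of 20 proliferation genes were positive (median 0.52), 10 of 10 T and NK cell markers (2.46) and 10 of 10 markers of enteric neurons and glia (0.90). Positive were also 6 of 47 large and 4 of 32 small subunit ribosomal protein genes (-0.50 and -0.53) and 5 of 10 smooth muscle markers (0.08). The part of these in the members' values was not tested.

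Within treatments, *Cldn2*KO and WT were set against each other in the same fit. As controls, 41 of 44 members were higher in *Cldn2*KO on the fitted scale, with a median log2 fold change of 0.27 beside -0.01 over all genes. None passed edgeR's test, where 1.17% of all genes did, 9 had an unadjusted p under 0.05, against 13.1% of all genes, and for 10 the groups did not overlap, against 11.6% of all genes for higher values. *Nop58*, at 98.4, 99.2 and 98.0 CPM in *Cldn2*KO controls against 62.7, 61.3 and 77.0 CPM in WT, had the smallest adjusted p (0.56 ± 0.162, edgeR adjusted p 0.114), followed by *Wdr75* (0.52 ± 0.173, 0.178) and *Nifk* (0.47 ± 0.169, 0.215). *Noc4l*, *Utp20* and *Polr1c* were the 3 with a negative value, down to -0.24 for *Noc4l*. DESeq2 called *Nop58* alone and limma-voom *Nop58*, *Utp18*, *Wdr75* and *Ddx10*, with 4.06% and 15.1% of all genes called. Leaving out WT control 2 brought the median to 0.06 with 27 positive, the *Hoxb13* term to 0.08 with 32 positive, and limma-voom to 0.13 with 31 positive. Between these controls, all 20 proliferation genes had a negative log2 fold change, with a median of -0.80, and their sums were 1700, 661 and 1220 CPM in WT and 745, 638 and 733 CPM in *Cldn2*KO. All 10 smooth muscle markers had a positive one, with a median of 0.90. All 10 T and NK cell markers had a negative one, with a median of -3.08 and 3 called lower, and 2 of 8 B and plasma cell markers were called lower. The part of these in the members' values was not tested.

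In recovery the order of the genotypes was split. Of the 44, 25 were lower in *Cldn2*KO and 19 higher, the median was -0.10, and 0 were called, where 0.974% of all genes were. The median was 0.02 with 23 higher without *Cldn2*KO recovery 1, and -0.23 with 32 lower without *Cldn2*KO recovery 3. Leaving out *Cldn2*KO recovery 2 or WT recovery 1 gave -0.06. Of other lists in this comparison, 1 of 20 proliferation genes was positive (median -1.05), 1 of 47 large and 1 of 32 small subunit ribosomal protein genes (-0.57 and -0.72), 0 of 10 T and NK cell markers (-1.44) and 10 of 10 markers of enteric neurons and glia (0.46), and their part in the members' values was not tested. An unadjusted p under 0.05 was found for 11 of 44 members, against 19.9% of all genes, and for 11 all *Cldn2*KO libraries lay below all WT libraries, against 11.7% of all genes. *Nop10* was at 44.1, 36.6 and 48.9 CPM in *Cldn2*KO recovery, below its 64.7 to 110.7 CPM in WT (-0.90 ± 0.211, edgeR adjusted p 0.0553). *Wdr12* (-0.68 ± 0.195, edgeR adjusted p 0.0768) and *Nop58* (-0.56 ± 0.161, edgeR adjusted p 0.077) followed, and *Rrp1b* was the highest on the other side (0.50 ± 0.33). Over all 16937 genes tested, the log2 fold change of *Cldn2*KO against WT in recovery rose with exon length (Spearman rho 0.32 across genes, which are not independent), and for the difference between genotypes in the recovery response rho was 0.204. Over the 44 members these values were 0.143 and 0.113. *Nop10*, with 1109 bases of exon, and *Nhp2*, with 1146, are the shortest members. The 22 members below the median length had a median difference in the recovery response of -0.42 and the 22 longer ones -0.19, and the part of length in these values was not tested. DESeq2 called 6 members lower in *Cldn2*KO, limma-voom 9 and the *Hoxb13* term 4, with 4.69%, 5.75% and 1.55% of all genes called lower, and *Nop10*, *Utp14a*, *Wdr12* and *Npm1* were in all 3 of these. After AOM/DSS, 31 members were lower in *Cldn2*KO, the median was -0.08, 2 had an unadjusted p under 0.05, against 5.6% of all genes, and 0 were called, with 0.0059% of all genes called. Without WT AOM/DSS 3 the order turned, with 28 members higher in *Cldn2*KO and a median of 0.05, and with limma-voom 24 were higher with a median of 0.01. The median was -0.21 without *Cldn2*KO AOM/DSS 1, -0.20 without WT AOM/DSS 2, -0.04 without *Cldn2*KO AOM/DSS 2 and -0.03 without *Cldn2*KO AOM/DSS 3. The smallest adjusted p was 0.862, for *Nop58* (-0.34 ± 0.161), *Pes1* (-0.29 ± 0.136) and *Pno1* (-0.42 ± 0.142). In the same comparison 10 of 10 smooth muscle markers (median 1.09) and 10 of 10 markers of enteric neurons and glia (0.95) were positive, 0 of 10 T and NK cell markers (-1.13) and 0 of 8 B and plasma cell markers (-1.32) were, and their part in the members' values was not tested. For *Pes1* alone the groups did not overlap, against 6.38% of all genes for lower values.

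Other genes of the pathway were read as lists. Of 104 other ribosome biogenesis factors, 29 rose and 2 fell in WT recovery, 29 rose in WT AOM/DSS, 6 rose and 1 fell in *Cldn2*KO recovery, and 0 were called by edgeR in *Cldn2*KO AOM/DSS. As shares, 27.9% rose in WT recovery and 27.9% in WT AOM/DSS, beside 10.0% and 3.81% of all genes, and 5.77% rose in *Cldn2*KO recovery, below the 9.43% of all genes. In *Cldn2*KO AOM/DSS, 16 of 104 had an unadjusted p under 0.05, against 15.2% of all genes, DESeq2 called 2 higher, where it called 2.15% of all genes higher, and limma-voom called 12 higher and 1 lower. The largest rises in WT AOM/DSS were those of *Ltv1* (1.05) and *Gtpbp4* (1.0), which encode factors for export and maturation of the small and the large subunit, with *Nle1* (0.89), *Sdad1* (0.89) and *Rsl1d1* (0.88) after them on the log2 scale. Their median log2 fold change was 0.26 in WT recovery and 0.48 in WT AOM/DSS, in both below the medians of 0.38 and 0.78 of the 44 members, a difference that was not tested. As with the members, the count in WT AOM/DSS fell without single libraries, to 8 without WT control 2 and 4 without WT AOM/DSS 3, and to 19 without WT control 1. In WT recovery it was 17 without WT control 1 and 18 without WT control 2, and the 6 rises in *Cldn2*KO recovery became 2 without *Cldn2*KO control 1, 2 or 3 or *Cldn2*KO recovery 2, and 3 without *Cldn2*KO recovery 3. Of 13 genes of the RNA exosome, which trims precursor rRNA, 4 rose in WT recovery (*Exosc7*, *C1d*, *Mtrex* and *Mphosph6*, at 0.70, 0.68, 0.65 and 0.56), *Mtrex* alone rose in WT AOM/DSS (0.61), and *Exosc9* rose in *Cldn2*KO recovery (0.58). *Mtrex* was called in WT recovery in each fit without 1 library, and it was lost in WT AOM/DSS without WT control 2 and without WT AOM/DSS 3. *Exosc9* was called only in the fit without *Cldn2*KO recovery 1 among those that left out 1 library, and *Exosc7*, *C1d* and *Mphosph6* were not called in WT recovery without WT recovery 2.

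Cytosolic ribosomal protein genes, whose products the assembly factors put in place, were called in WT recovery and in no other of these comparisons by edgeR. There, 27 of 47 large subunit and 20 of 32 small subunit genes rose, with medians of 0.75 and 0.79, for instance *Rpl34* (1.09), *Rpl5* (1.07), *Rps27* (1.17) and *Rps14* (1.14). In WT AOM/DSS 0 of either subunit were called by edgeR, DESeq2 or limma-voom, 4 and 2 had an unadjusted p under 0.05, and both medians were 0.33. The calls in recovery depended on single libraries. In WT recovery 2 the large subunit genes summed to 55000 CPM against 30300 and 35200 CPM in the other two libraries, and without that library 0 of 47 and 0 of 32 were called, with 14 and 9 at an unadjusted p under 0.05 and medians of 0.42 and 0.40. Without WT control 1 the counts were 2 and 1, without WT control 2 they were 7 and 3, and with *Xist* as a covariate 5 and 4. In *Cldn2*KO recovery the medians were -0.12 and -0.24, 1 of 47 and 0 of 32 had an unadjusted p under 0.05, DESeq2 called 0 and limma-voom 2 large subunit genes, 1 in each direction. Of the 17 members that rose in WT recovery, 14 were called without WT recovery 2. Many ribosomal protein genes have near-identical processed copies, so their levels are uncertain.

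Of 12 genes of the *Myc* network, which includes a known activator of ribosome biogenesis genes and its antagonists, *Myc* and *Mycl* rose in WT AOM/DSS (log2 fold changes 1.57 and 1.29, edgeR adjusted p 0.0249 and 0.0199) and *Mxd1*, *Mxi1* and *Max* fell (-1.36, -1.30 and -1.02). The WT controls had 10.5, 9.56 and 13.1 CPM of *Myc*, and the WT AOM/DSS libraries had 26.4, 30.6 and 41.0 CPM, with no overlap. Neither *Myc* nor *Mycl* was called without WT control 2 or without WT AOM/DSS 3, and *Myc* was not called without WT control 1. Of the 3 that fell, *Mxd1* was called in each fit without 1 library, and *Max* and *Mxi1* were lost without WT AOM/DSS 3. In WT recovery *Mxd1* (-2.12), *Max* (-1.03), *Mxi1* (-0.91) and *Mlx* (-0.48) fell and none rose. In fits without 1 library *Max* and *Mxd1* stayed called, *Mxi1* was lost without WT control 2, WT recovery 2 or WT recovery 3, and *Mlx* was called only in the one without WT control 2. In *Cldn2*KO recovery *Max* and *Mxd1* fell (-1.14 and -1.13). None was called by edgeR in *Cldn2*KO AOM/DSS, where 5 had an unadjusted p under 0.05, DESeq2 called *Myc* higher and *Max* and *Mxd1* lower, and limma-voom called 6. *Myc* was there at 34.3, 27.7 and 30.2 CPM, against 16, 8.66 and 12.2 CPM in *Cldn2*KO controls. Of 20 proliferation genes, 0 were called by edgeR in any of these 4 comparisons, with 0 to 3 at an unadjusted p under 0.05. DESeq2 called *Plk1* higher in both *Cldn2*KO comparisons, and limma-voom called 1 higher and 14 lower in *Cldn2*KO recovery, 2 lower in WT recovery and 5 higher in *Cldn2*KO AOM/DSS. Their median log2 fold change was -0.19 in WT recovery, 0.17 in WT AOM/DSS, -0.41 in *Cldn2*KO recovery and 0.63 in *Cldn2*KO AOM/DSS. Their summed level in *Cldn2*KO recovery was 290, 240 and 1040 CPM, and without the high library, *Cldn2*KO recovery 3, 17 of 20 were called lower. In that fit 1270 of all 17324 genes were called higher and 1557 lower in *Cldn2*KO recovery. No member other than *Utp20* was called there, with a members' median of -0.07. How the members relate to the proliferation genes was not tested.

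Cell type markers differed between the groups. The 10 smooth muscle markers summed to 4200 to 6220 CPM in WT controls, 893 to 2450 CPM in WT recovery and 625 to 3290 CPM in WT AOM/DSS, and to 8420 to 11400, 1040 to 1620 and 2560 to 6500 CPM in the same groups of *Cldn2*KO. Of the 10, 6 fell in WT recovery, 10 in *Cldn2*KO recovery and 4 in WT AOM/DSS. The 14 markers of colon epithelium summed to 24700 to 68400, 41700 to 71400 and 11900 to 16400 CPM in WT and to 23300 to 27000, 29200 to 54500 and 15300 to 19600 CPM in *Cldn2*KO. In WT recovery the epithelial sum and most of its genes went different ways, since 6 of the 14 fell, 1 rose, 3 had a positive log2 fold change and the median was -0.71. In *Cldn2*KO recovery 2 fell and 1 rose, and in WT AOM/DSS 7 of the 14 fell, with a median of -0.70. The 9 markers of the crypt base summed to 122 to 224, 249 or more and 215 to 691 CPM in WT and to 192 to 212, 161 to 375 and 259 to 428 CPM in *Cldn2*KO. WT AOM/DSS 3 was the highest library both for the crypt base sum and for the sum of the members. Every marker of the 8 cell type lists had reads in every group except *Olfm4*, which had none in WT recovery. The 8 B and plasma cell markers summed to 1560 to 1720, 185 to 301 and 405 to 814 CPM in WT and to 24.0 to 301, 44.4 to 46.2 and 301 to 523 CPM in *Cldn2*KO, and 5 fell in WT recovery and 2 in *Cldn2*KO recovery. Of 10 macrophage and neutrophil markers, 6 fell in WT recovery, 5 fell and 2 rose in *Cldn2*KO recovery and 2 rose in WT AOM/DSS, and their sums were 205 to 273, 41.9 to 70.6 and 180.0 to 575 CPM in WT and 91.4 to 360.0, 27.5 to 46.1 and 119 to 199 CPM in *Cldn2*KO. Of 7 fibroblast markers, 3 fell in WT recovery and 4 in *Cldn2*KO recovery, with sums of 414 to 539, 159 to 246 and 309 to 517 CPM in WT and 429 to 704, 133 to 186 and 293 to 753 CPM in *Cldn2*KO. The 10 T and NK cell markers summed to 12.5, 154 and 18.4 CPM in WT controls, where WT control 2 was the high one, to 59.0, 202 and 63.9 CPM in WT recovery and to 10.1 to 26.0 CPM in WT AOM/DSS. In *Cldn2*KO they summed to 1.55 to 11.6, 26.2 to 42.4 and 4.84 to 10.4 CPM, 5 of them rose in *Cldn2*KO recovery, and 1 fell in WT AOM/DSS. Of 10 markers of enteric neurons and glia, 5 fell in WT AOM/DSS, with sums of 62.3 to 113, 57.5 to 77.8 and 23.6 to 39.8 CPM in WT and 66.8 to 104, 84.2 to 96.5 and 30.2 to 80.5 CPM in *Cldn2*KO. The part of tissue makeup in the members' values was not tested, and in bulk RNA fewer cells of a type and less RNA per cell cannot be told apart.

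Across the 18 libraries, log2 CPM of *Nifk* was most like that of *Nop58* (Pearson r 0.96), *Pno1* (0.912) and *Nop10* (0.855) among the members and least like that of *Utp20* (-0.429), with a median of 0.521. Outside the members, the 5 most alike were *Ssb* (0.943), *Rsl1d1* (0.942), *Nip7* (0.93), *Rpp14* (0.926) and *Mphosph10* (0.921). The genes outside them most like the mean of the members included *Pum3* (0.943), *Polr3e* (0.929), *Dctd* (0.921) and *Wdr74* (0.912), and within them the mean was closest to *Ftsj3* (0.957), *Gnl3* (0.955) and *Noc2l* (0.949) and furthest from *Polr1c* (0.105) and *Utp20* (0.109). *Nifk* itself was at 0.653 and ranked 39 of 44. The libraries share group, scaling and tissue makeup, so these values describe likeness and carry no test.

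Promoters were read for 39 of the 44 members from RefSeq on GRCm38.p6, as 250 bases before and 50 after the annotated start, and 3 motifs were sought on both strands. The E-box CACGTG, which *Myc* and its partners among others bind, occurred in 8 of 39 members (20.5%), in 20.5% of 83 other biogenesis factors and in 8.09% of 27025 genes. CCGGAAG, a core of ETS family sites, occurred in 28.2% of members, 51.8% of the other factors and 9.93% of genes. TCTCGCGA occurred in 10.3% of members (*Polr1c*, *Nop58*, *Nop14* and *Tsr1*), 2.41% of the other factors and 1.13% of genes. The E-box was in 4 of 16 members with a promoter that rose in WT recovery and in 4 of 23 that did not, and in 4 of 23 that rose in WT AOM/DSS and 4 of 16 that did not. The 150 bases before the start of 4 members are shown with motif letters in capitals: *Nifk* and *Utp20*, which rose and fell in WT recovery, have none of the 3 motifs there, while *Utp18*, called in both treated WT groups, and *Nop2*, called in neither, each have an E-box and CCGGAAG. The E-box of *Utp18* begins 20 bases before the start and that of *Nop2* 60 bases before it, and *Utp20* has an E-box 38 bases after its start, outside the stretch shown. The stretches are *Nifk* chr1:118321693-118321842 (plus strand), *Utp20* chr10:88826815-88826964 (minus), *Utp18* chr11:93885767-93885916 (minus) and *Nop2* chr6:125131733-125131882 (plus), each written 5′ to 3′ on its gene's strand.
Nifk: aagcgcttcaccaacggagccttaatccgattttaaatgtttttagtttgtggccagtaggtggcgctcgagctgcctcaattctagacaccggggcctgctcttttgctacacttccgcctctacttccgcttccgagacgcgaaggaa
Utp20: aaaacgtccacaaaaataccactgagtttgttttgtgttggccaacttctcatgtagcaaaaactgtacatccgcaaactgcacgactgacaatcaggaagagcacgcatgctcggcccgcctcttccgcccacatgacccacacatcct
Utp18: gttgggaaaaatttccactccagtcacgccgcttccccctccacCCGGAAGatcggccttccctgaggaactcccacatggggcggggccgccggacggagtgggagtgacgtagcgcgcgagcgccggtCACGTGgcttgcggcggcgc
Nop2: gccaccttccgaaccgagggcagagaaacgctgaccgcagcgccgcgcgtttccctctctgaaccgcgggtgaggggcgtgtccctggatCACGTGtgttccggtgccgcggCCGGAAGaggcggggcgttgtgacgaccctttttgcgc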

How the data were processed

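RNA-seq of mouse colon was analysed from 18 libraries in 6 groups of 3. The authors deposited raw counts of reads per gene for 47729 Ensembl genes, 1 column for each of 2 sequencing lanes per library. The study's methods name TopHat2 as the aligner, the submitters' processing notes list HISAT2 with featureCounts from Subread and build GRCm38, and which aligner made the table was not settled here. Counts from both lanes were added after a chi-square check, which gave 1.08 to 1.18 times its degrees of freedom, close to sampling noise. The sums were 17.64 to 27.39 M reads per library, so counting error is small beside the spread between libraries. Symbols came from GENCODE M21 and matched 47310 genes. The other 419 genes held at most 0.0292% of a library's reads.

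Genes were kept by edgeR's filterByExpr (16937 tested). edgeR 4.0.16 in R 4.3.3 fitted 1 mean per group over all 18 libraries, with TMM scaling and robust quasi-likelihood tests. P-values were two-sided and Benjamini-Hochberg adjusted over all genes tested, with calls under 0.05. The SE of a log2 fold change was its size over the square root of F. The 9 comparisons were the 3 between genotypes, the 4 between a treatment and its control and the 2 differences between genotypes in response. CPM are counts per M reads with TMM scaling, and log2 CPM for likeness used a prior count of 2.

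The members and all lists were chosen with earlier results of these data known. Named were *Nifk* and 7 role exemplars, up to 10 called members per direction and comparison by size of log2 fold change (the 3 of smallest p where none was called), up to 3 members against the majority, up to 5 called genes of each other list, and the 5 genes most like *Nifk* and the members' mean. Other genes named, such as those at the ends of a range, those called under an alternative and further called members, were chosen after their values were seen. Alternatives were other scalings (RLE, upper quartile), no filter, a minimum of 1 CPM in 3 libraries, DESeq2 1.42.0, limma 3.58.1 voom with sample weights, only the groups compared, thresholds of 0.01 and 0.1, an *Xist* covariate, a term for *Hoxb13* above 10 CPM, a replicate block and leaving out libraries. Promoter sequences and motif shares came from RefSeq on GRCm38.p6, and members without an entry were *Fbl*, *Rrp12*, *Bop1*, *Rrs1* and *Npm1*. Figures were drawn with matplotlib 3.10.9. One gene that the rule for likeness to the members' mean would name is not reported here.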

Additional observations from a re-analysis of the deposited data

How the results depend on the processing

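The number of members called kept within 1.5 times of the reported number under the alternatives run, apart from these. In WT AOM/DSS against control, 24 as reported, it was 6 at an adjusted p under 0.01 (0.142% of all genes called higher), 0 with only the groups compared, 6 with the *Hoxb13* term and 3 without both WT control 2 and WT AOM/DSS 3 (chosen after seeing the data), and 6 to 24 with 1 library left out. In *Cldn2*KO recovery against control, 2 as reported, it was 1 at an adjusted p under 0.01, with upper-quartile scaling, without the filter and with the *Xist* covariate, 0 with the *Hoxb13* term, and 1 to 2 with 1 library left out. Genes called in either direction there were 1438 at an adjusted p under 0.01, 3224 with upper-quartile scaling and 1842 with the *Xist* covariate, each of 16937. They were 2624 of 30526 without the filter and 133 of 16937 with the *Hoxb13* term. The remaining results were 0 by edgeR as reported. *Cldn2*KO against WT controls gave 1 with DESeq2 and 4 with limma-voom. *Cldn2*KO against WT in recovery gave 4 at an adjusted p under 0.1 (3.55% of all genes called lower), 1 with upper-quartile scaling (0.644%), 6 with DESeq2, 9 with limma-voom, 4 with the *Hoxb13* term and 0 to 1 with 1 library left out. AOM/DSS in *Cldn2*KO gave 9 with limma-voom. The difference between genotypes in the recovery response gave 4 at an adjusted p under 0.1 (1.07% of all genes called lower), 6 with DESeq2, 7 with limma-voom and 0 to 1 with 1 library left out. The cause of these changes was not tested, except that a stricter or looser threshold changes a count by construction. WT recovery, 18 as reported, ran from 12 to 19 with 1 library left out. The log2 fold change of *Nifk* in *Cldn2*KO AOM/DSS, not called as reported, ran from -0.02 (without *Cldn2*KO AOM/DSS 1) to 0.25 with 1 library left out. Of single members, 129 of 384 fits kept the direction and lost the call in WT AOM/DSS and 35 of 288 in WT recovery. Labels of the untreated controls share replicate numbers. A replicate block on them gave 0 members called and a median log2 fold change of 0.28, and same-numbered controls deviated together with r of 0.157, 0.00234 and 0.0794, so the numbers were read as names. The smallest count of a member in a library was 73.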
